A study of Homo sapiens with 12 samples.

Results

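The mitochondrial ribosomal protein genes code for the protein part of the mitochondrial ribosome (mitoribosome). They were taken by symbol, as every measured gene whose name is MRPL or MRPS followed by a number, which gave 74 of the 18404 genes tested. By symbol, 48 belong to the large subunit (MRPL) and 26 to the small subunit (MRPS), 1 of the 26 being a pseudogene, MRPS31P5. Membership was chosen by name, and the only measured value this rule used was the mean intensity over all arrays. The brightest probe set of a gene with several was selected on that mean. The family itself was chosen with earlier results of these data known, so its share of falls is not an independent test. The mitoribosome translates the few messages of the mitochondrial genome, which code for subunits of the oxidative phosphorylation (OXPHOS) complexes. Its rRNAs are transcribed inside the organelle, while all of its proteins come from nuclear genes and are imported. Many of them descend from bacterial ribosomal proteins and others were added during the evolution of mitochondria.

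JHU-029 and FaDU are established cell lines derived from squamous carcinomas of the head and neck. Each line was infected with a lentivirus that carried either a control shRNA (shControl) or an shRNA against TP63 (shTP63), and RNA was taken 72 hours later. TP63 encodes p63, a transcription factor of basal squamous epithelium, and the series asks how these cells change when it is depleted. The 4 groups (JHU-029 shControl, JHU-029 shTP63, FaDU shControl and FaDU shTP63) held 3 single-channel arrays each, and all groups share the lentiviral vector treatment. Whether the 3 replicates of a group were grown apart is not stated in the labels. The p-values therefore cover the spread among the arrays at hand, which may be technical. The level of TP63 itself was not analysed here.

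Arrays of a group correlated at 0.993 to 0.997 over all 32321 probe sets on the log2 scale, and arrays of different lines at 0.94 to 0.951. Of 10 squamous epithelial markers, 8 were measured, and their summed linear intensity was 33075 to 35166 in JHU-029 shControl, 30839 to 32941 in JHU-029 shTP63, 20702 to 21061 in FaDU shControl and 14348 to 14662 in FaDU shTP63. Of the 8, 6 fell in FaDU after the knockdown (KRT5, the basal keratin, by 1.41 on the log2 scale) and 1 (EPCAM) rose in JHU-029, a call lost without any JHU-029 shControl array or JHU-029 shTP63 replicate 2 or 3. The part of this shift in the results below was not tested. None of 6 fibroblast or 4 endothelial markers passed limma's test in either line (1 fibroblast marker had an unadjusted p under 0.05, in FaDU), and their summed intensities were 431 to 511 and 203 to 287 over all 12 arrays. Of 4 immune markers, LYZ (lysozyme) rose in FaDU by 0.76. All 4 estimates were above 0 in FaDU, and limma gave 3 of them an unadjusted p under 0.05. The list summed to 1873 to 1932 in FaDU shControl, 1972 to 2203 in FaDU shTP63 and 1712 to 1925 in JHU-029. 2 of the 3 FaDU shControl arrays carry the word new in their titles, so results in FaDU are also given without them. The remaining FaDU shControl array was then assumed to vary like the arrays of the other groups.

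The start regions of the genes hold letters that set the family apart by description. The window runs from 250 bases before to 50 bases after the annotated start (RefSeq, GRCh38.p14), and 66 of the 74 members had an entry. The letters CCGGAAG, the core bound by ETS-family transcription factors, occurred on either strand in 42.4% of the 66 windows, against 14.6% of 14230 windows of all genes tested and 10.7% of all 27305 RefSeq windows. AAGATGG, part of the site bound by YY1, occurred in 31.8%, against 6.51% of the genes tested. GCATGCG, part of the site of NRF1 (a regulator of nuclear genes for mitochondria), occurred in 10.6% against 5.1%, CACGTG (the E-box) in 9.09% against 8.88%, and CCAAT (the CCAAT box) in 30.3% against 36.3%. No motif contains the letters of another, and a match shows only that the letters are there.

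Of the 66 members with an entry, 27 fell in FaDU (below) and 39 did not. CCGGAAG stood in 33.3% of the first and 48.7% of the second, and AAGATGG in 29.6% and 33.3%. The 250 bases before the start are printed for 3 genes of each subunit, 5′ to 3′ on the gene's strand with the searched letters in capitals. They are the member with the largest fall in FaDU, the one with the largest fall among those that hold CCGGAAG before the start, and the one with the smallest change among members with CCGGAAG that did not pass the test.
MRPL1, chr4:77862580-77862829 (+): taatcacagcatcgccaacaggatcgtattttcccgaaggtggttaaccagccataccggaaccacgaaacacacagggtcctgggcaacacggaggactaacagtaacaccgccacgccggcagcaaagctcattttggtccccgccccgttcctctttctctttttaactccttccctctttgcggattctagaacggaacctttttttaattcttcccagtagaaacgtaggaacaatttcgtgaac
MRPL3, chr3:131502972-131503221 (-): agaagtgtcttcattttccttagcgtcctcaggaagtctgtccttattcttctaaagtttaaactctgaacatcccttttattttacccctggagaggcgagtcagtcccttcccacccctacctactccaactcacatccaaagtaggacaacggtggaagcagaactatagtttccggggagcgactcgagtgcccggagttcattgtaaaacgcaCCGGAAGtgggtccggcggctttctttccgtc
MRPL40, chr22:19432295-19432544 (+): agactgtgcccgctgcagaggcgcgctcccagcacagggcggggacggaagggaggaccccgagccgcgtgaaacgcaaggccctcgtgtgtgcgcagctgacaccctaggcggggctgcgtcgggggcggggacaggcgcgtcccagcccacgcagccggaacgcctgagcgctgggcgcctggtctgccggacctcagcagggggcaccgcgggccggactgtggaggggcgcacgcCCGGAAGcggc
MRPS14, chr1:175023426-175023675 (-): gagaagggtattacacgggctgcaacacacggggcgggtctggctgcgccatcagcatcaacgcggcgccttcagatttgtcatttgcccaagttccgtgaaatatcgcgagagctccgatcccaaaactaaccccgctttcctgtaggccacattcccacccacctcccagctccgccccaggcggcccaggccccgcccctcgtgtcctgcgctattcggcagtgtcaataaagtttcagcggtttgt
MRPS21, chr1:150293611-150293860 (+): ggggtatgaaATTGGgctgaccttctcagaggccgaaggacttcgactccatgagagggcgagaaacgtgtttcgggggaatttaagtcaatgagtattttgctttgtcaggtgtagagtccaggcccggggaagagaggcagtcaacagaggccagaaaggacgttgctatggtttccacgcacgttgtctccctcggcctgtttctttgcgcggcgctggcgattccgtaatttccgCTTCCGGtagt
MRPS22, chr3:139343744-139343993 (+): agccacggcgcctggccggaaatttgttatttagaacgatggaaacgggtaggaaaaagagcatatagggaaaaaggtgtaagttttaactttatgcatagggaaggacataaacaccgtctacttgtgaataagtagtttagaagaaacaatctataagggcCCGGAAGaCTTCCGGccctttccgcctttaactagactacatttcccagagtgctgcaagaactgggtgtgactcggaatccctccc
MRPL1 and MRPS14, with the largest fall of the large and of the small subunit, held none of the 5 motifs in these bases. Other members with large falls were mixed. In the whole window, MRPS12 (-0.59) held the ETS core, while MRPS25 (-0.65) held none of the 5 motifs. MRPL3 and MRPL40 held CCGGAAG on the gene's own strand, 32 and 11 bases before the start, and MRPS21 held it on the opposite strand 11 bases before. MRPS22, whose FaDU change was -0.01, held it on both strands, 87 and 79 bases before the start. MRPS21 also held CCAAT on the opposite strand, 240 bases before the start.

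After TP63 knockdown in FaDU, 29 of the 74 genes fell and 0 rose. Of all 18404 genes, 14.2% fell and 12.4% rose by the same test (limma, adjusted p under 0.05). 1 member, MRPL54, was higher with an unadjusted p under 0.05 (0.25, adjusted p = 0.105). It passed as higher without FaDU shTP63 replicate 3 (0.33, adjusted p = 0.0446), and MRPL53 did so without FaDU shControl replicate 3 (0.17, adjusted p = 0.0368). The fall included 18 of 48 large subunit genes (37.5%) and 11 of 26 small subunit genes (42.3%). The median change was -0.11 on the log2 scale for the large and -0.14 for the small subunit, against 0.02 over all genes, and 62 of the 74 estimates were below 0. Members are bright on these arrays, with 71 of the 74 above the median mean level of all genes. Among the 9202 genes above that level 24.3% fell and 17.4% rose, against 40.8% and 0% of the 71 members, so the members' share of falls lay above this background too. This background was added after the data had been seen. In whole-culture RNA, fewer cells with a transcript and less of it per cell cannot be told apart.

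**Figure D1:**
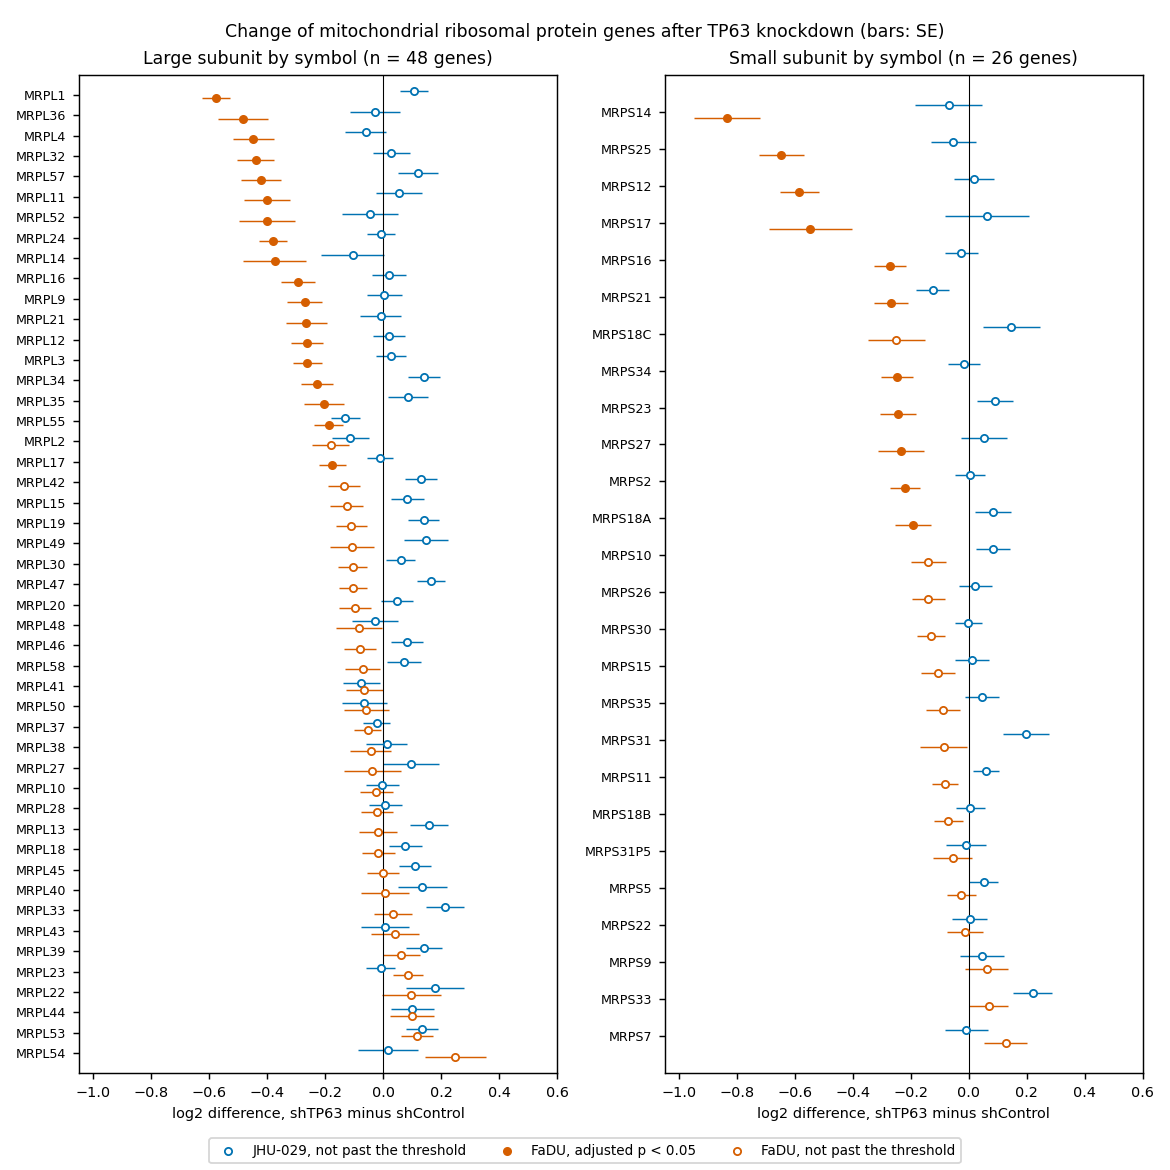
Log2 difference (shTP63 minus shControl, horizontal axis) with its standard error for each of the 48 large (left) and 26 small (right) subunit genes, in JHU-029 (blue) and FaDU (orange), where filled points passed limma's adjusted p of 0.05. In FaDU 29 points are filled and all lie below 0, from -0.83 (MRPS14) upward, while no JHU-029 point is filled. MRPL36 is drawn from 1 of its 2 probe sets, which disagree.

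Among large subunit proteins with a bacterial counterpart, MRPL1 (probe set 8095894), a protein of the mobile L1 stalk where spent tRNA leaves, had log2 intensities of 7.63, 7.61 and 7.61 in the FaDU shControl arrays and 7.07, 7.07 and 6.98 in the shTP63 arrays. The knockdown arrays all lay below the controls, a fall of 0.58 (SE 0.05, 1.49-fold, limma adjusted p = 3.79e-06). The rule for naming the largest falls required groups without overlap, which 6647 of 18404 genes had in FaDU in either direction. In JHU-029 the same gene stood at 7.63, 7.59 and 7.63 against 7.69, 7.76 and 7.72, a difference of 0.11 that did not pass (adjusted p = 0.336). The JHU-029 groups did not overlap either, but in the opposite order. In JHU-029, 4590 of 18404 genes had groups without overlap.

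MRPL4 (8025586), which lines the tunnel through which the new peptide leaves, went from 8.62, 8.58 and 8.66 in FaDU shControl to 8.03, 8.15 and 8.33. The groups did not overlap, and the fall was 0.45 (SE 0.07, adjusted p = 0.000443). MRPL32 (8132458), a protein that the m-AAA protease trims before it joins the ribosome, read 10.11, 10.21 and 10.16 in the controls and 9.75, 9.83 and 9.58 after knockdown, a fall of 0.44 (SE 0.06, adjusted p = 0.000239). MRPL24 (7921121), close to the tunnel exit, read 9.81, 9.76 and 9.88 against 9.41, 9.45 and 9.45. Its fall of 0.38 (SE 0.05, adjusted p = 9.71e-05) again left no overlap, whereas the 6 JHU-029 arrays all lay between 8.78 and 8.81.

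Of the other large subunit proteins with a bacterial counterpart, MRPL11, at the base of the stalk that recruits translation factors, fell by 0.40 (SE 0.08, adjusted p = 0.0022). MRPL12, the stalk protein that also binds the mitochondrial RNA polymerase, went from 10.74, 10.74 and 10.72 to 10.52, 10.39 and 10.49 and fell by 0.26 (SE 0.05, adjusted p = 0.00281). The call for MRPL12 was lost without the 2 FaDU controls titled new. In all, 15 of the 29 measured genes of this kind fell, with a median change of -0.18 over the 29. That is 51.7%, against 14.2% of all genes and 24.3% of genes above the median level.

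Of 19 large subunit genes without a bacterial counterpart 3 fell, or 15.8% against 14.2% of all genes, and the median over the 19 was -0.06. Whether the 2 kinds differ was not tested. The 3 were MRPL57, MRPL52 and MRPL55. MRPL57 (7967987) read 8.88, 8.81 and 8.93 in FaDU shControl and 8.37, 8.40 and 8.59 in shTP63, a fall of 0.42 (SE 0.07, adjusted p = 0.000547) with no overlap. MRPL52 read 8.09, 7.86 and 7.95 against 7.75, 7.61 and 7.33 and fell by 0.40 (SE 0.10, adjusted p = 0.00752), a call lost without the 2 controls titled new. MRPL58, a peptidyl-tRNA hydrolase that rescues stalled mitoribosomes, changed by -0.07 (adjusted p = 0.435), and MRPL44, which has the fold of a double-strand RNA nuclease, by 0.10 (adjusted p = 0.387).

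The estimate for MRPL36, a small protein of the large subunit core, is uncertain because its 2 probe sets disagree. The brighter one (8180305) fell by 0.48 in FaDU (SE 0.09, adjusted p = 0.00118), while the dimmer one (8110861) differed by 0.07. The gene is counted among the 29 by the brighter probe set.

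In the small subunit, MRPS14 (7922462), a protein of the subunit's head, had the largest fall of the family. Its log2 intensities were 8.58, 8.96 and 8.89 in FaDU shControl and 8.22, 7.88 and 7.83 in shTP63. The groups did not overlap, and the fall was 0.83 (SE 0.12, 1.78-fold, adjusted p = 0.000166). In JHU-029 it read 9.66, 9.51 and 9.55 against 9.39, 9.52 and 9.59, which overlapped (adjusted p = 0.877).

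MRPS12 (8028563), the decoding-centre protein of the small subunit, read 7.82, 8.01 and 7.97 in FaDU shControl and 7.27, 7.46 and 7.31 in shTP63, a fall of 0.59 (SE 0.07, adjusted p = 4.33e-05). MRPS25 (8085531), which has no bacterial counterpart, read 8.38, 8.18 and 8.40 against 7.54, 7.67 and 7.81 and fell by 0.65 (SE 0.08, 1.57-fold, adjusted p = 5.78e-05). Neither gene's FaDU groups overlapped. MRPS17 (8132922), an rRNA-binding protein of the body, read 8.41, 8.39 and 8.35 against 7.37, 8.07 and 8.06. Its fall of 0.55 (SE 0.14, adjusted p = 0.0132) has 1 knockdown array, replicate 1, far below the other two. Without it the fall was 0.32 (adjusted p = 0.00406), and the call was lost in a fit of FaDU alone and without the 2 controls titled new. In this subunit, 6 of 13 genes with a bacterial counterpart and 4 of 10 without one fell, with medians of -0.22 and -0.11. These are 46.2% and 40%, against 14.2% of all genes and 24.3% of genes above the median level. MRPS18A, MRPS30 and MRPS31P5 were counted in neither kind.

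**Figure D2:**
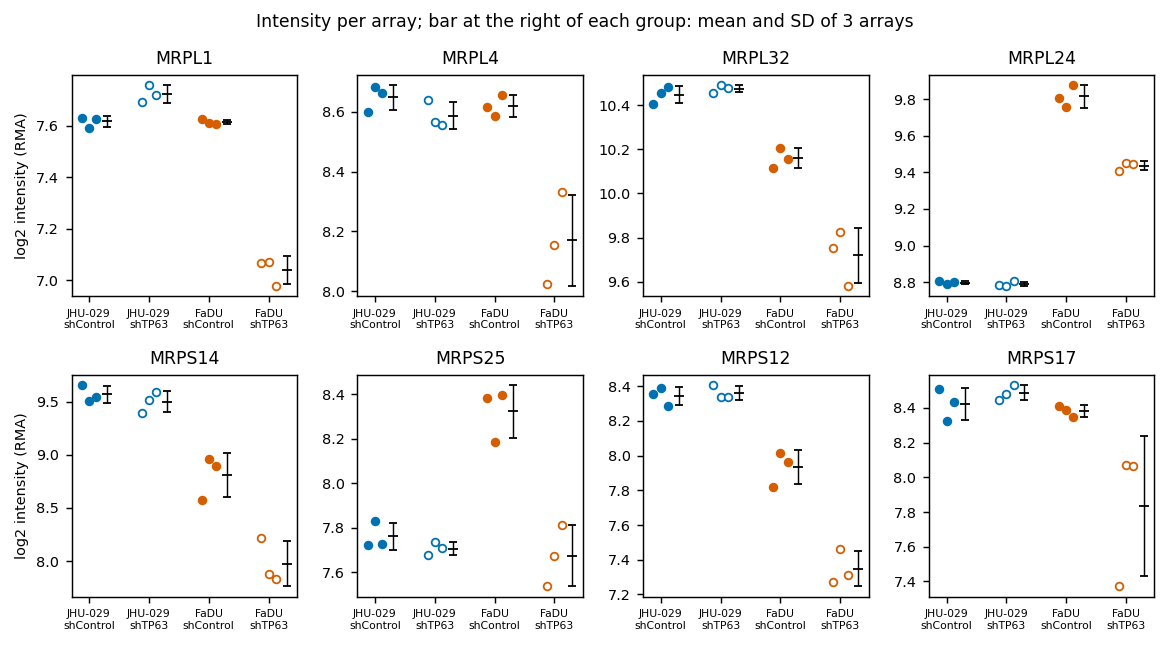
Log2 intensity of each array (vertical axis, a separate scale per gene) for 4 large and 4 small subunit genes in the 4 groups, with the mean and SD of the 3 arrays at the right of each group. In each panel the FaDU shTP63 arrays lie below the FaDU shControl arrays, as for MRPL1 (6.98 to 7.07 against 7.61 to 7.63), and MRPS17 has 1 low knockdown array at 7.37.

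3 paralogues share the name MRPS18, after a bacterial small subunit protein. MRPS18A, which sits in the large subunit by structure, fell by 0.19 in FaDU (SE 0.06, adjusted p = 0.036). MRPS18C changed by -0.25 (SE 0.10, adjusted p = 0.0799) and MRPS18B by -0.07 (adjusted p = 0.361), neither past the threshold. MRPS30, the other protein named for the small subunit but found in the large one, changed by -0.13 (adjusted p = 0.0595). Counted by structure, 19 of 50 large (38%) and 10 of 24 small subunit genes (41.7%) fell, against 14.2% of all genes.

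The 29 calls were of unequal strength. Of them, 23 passed in each of the 12 fits that left out 1 array, MRPL1, MRPL32, MRPS14, MRPS25 and MRPS12 among them, and 18 also passed under all 10 other settings. The other 6 did not. MRPL35 passed only without FaDU shControl replicate 2 (adjusted p of up to 0.175, with a change of -0.14 in place of -0.20 without FaDU shControl replicate 1). MRPS27 failed without any JHU-029 or FaDU shControl array, JHU-029 shTP63 replicate 2 or FaDU shTP63 replicate 1 or 2 (up to 0.161). MRPS18A failed without JHU-029 shControl replicate 2, FaDU shControl replicate 1 or 3, or FaDU shTP63 replicate 1 or 2, and MRPL14 without FaDU shControl replicate 2 or 3 or FaDU shTP63 replicate 1 or 2. MRPL21 failed without FaDU shControl replicate 3 or FaDU shTP63 replicate 1, and MRPL55 without FaDU shTP63 replicate 3. Without the 2 FaDU controls titled new, 14 large subunit genes fell (12 of the 18) and 10 small subunit genes (9 of the 11).

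In JHU-029, 0 of the 74 genes passed the test in either direction, where 3.15% of all genes did (1.8% higher and 1.35% lower). limma gave an unadjusted p under 0.05 for 12 of them, 11 with a higher estimate after knockdown, and the lowest adjusted p was 0.0962. The median change was 0.04 for the large and 0.02 for the small subunit, with a range over the 74 from -0.13 to 0.22. The gene with that lowest p was MRPL47 (8092265), a large subunit protein whose gene lies next to ACTL6A. It read 10.28, 10.22 and 10.20 in shControl and 10.37, 10.41 and 10.42 in shTP63, a difference of 0.16 (SE 0.05, 95% interval 0.06 to 0.27) without overlap. With only the genes above the median level tested, MRPL47, MRPL33 and MRPS33 passed, all 3 higher (adjusted p = 0.0225, 0.0402 and 0.0391). These are 3 of 71 members, while 6.28% of all 9202 genes passed as higher in that fit, so the members' share is not above the background.

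Whether the knockdown acted differently in FaDU and JHU-029 was tested directly, as the FaDU effect minus the JHU-029 effect. It was below 0 and past the threshold for 18 genes, 14 of the large and 4 of the small subunit, and above 0 for 0, where 8.25% and 4.97% of all genes were. Among genes above the median level the shares were 14.5% and 6.85%, against 25.4% and 0% of the 71 members there, and no member was above 0 with an unadjusted p under 0.05 (limma). By subunit, 29.2% of the 48 large and 15.4% of the 26 small subunit genes were below 0. The small subunit share is near the 14.5% of genes above the median level. The median difference was -0.16 for the large and -0.19 for the small subunit, against 0.01 over all genes. MRPL1 had a difference of -0.68 (SE 0.07, 95% interval -0.83 to -0.53, adjusted p = 7.79e-05), MRPS14 -0.76 (SE 0.16, -1.12 to -0.41, adjusted p = 0.00843) and MRPS12 -0.60 (SE 0.10, adjusted p = 0.00156). MRPS25, MRPL57, MRPL32, MRPL11, MRPL24 and MRPL34 were the other 6 of the 9 genes that passed with any 1 array left out. For MRPL47 neither line's own change passed, with 0.16 in JHU-029 and -0.11 in FaDU, while their difference did, at -0.27 (SE 0.07, adjusted p = 0.0198).

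The difference is less settled for the remaining 9. It was lost for MRPL47 without JHU-029 shControl replicate 2 or 3 or JHU-029 shTP63 replicate 2 or 3. For MRPL3 it was lost without JHU-029 shControl replicate 1 or 3, and for MRPL4 without JHU-029 shControl replicate 1, FaDU shControl replicate 3 or JHU-029 shTP63 replicate 1. MRPS23 and MRPL16 lost it without JHU-029 shControl replicate 1 or 3, JHU-029 shTP63 replicate 2 or 3 or FaDU shControl replicate 3, and further without FaDU shTP63 replicate 2 (MRPS23) or 1 (MRPL16). MRPL12 lost it without JHU-029 shControl replicate 2 or 3, JHU-029 shTP63 replicate 1 or 2, FaDU shControl replicate 1 or FaDU shTP63 replicate 2. MRPL36 kept it only without FaDU shControl replicate 2 or FaDU shTP63 replicate 1 or 2, MRPL42 only without FaDU shControl replicate 3, JHU-029 shTP63 replicate 1 or FaDU shTP63 replicate 3, and MRPL19 only without FaDU shTP63 replicate 2. The count of large subunit genes ran from 7 (without JHU-029 shControl replicate 3) to 14 and was 8 or 9 without JHU-029 shControl replicate 1 or 2 or JHU-029 shTP63 replicate 2 or 3. The small subunit count ran from 3 to 7 (without FaDU shControl replicate 2 or FaDU shTP63 replicate 3). Of all genes, 5.86% to 8.88% passed below 0 in the fits with 1 array left out. MRPS17, with a difference of -0.61, did not pass (SE 0.20, adjusted p = 0.0717).

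Genes that work with the mitoribosome were read from lists by name, each against the 14.2% of all genes that fell and the 12.4% that rose in FaDU. Among genes above the median level these shares were 24.3% and 17.4%. The lists were not sorted by level, so the part of brightness in their shares was not tested. Of 15 genes of mitochondrial transcription, RNA processing and DNA replication, read as 1 list, 9 fell in FaDU and 0 rose. By limma 0 were higher at an unadjusted p under 0.05 as well, and the median change was -0.21 against 0.02 over all genes. HSD17B10, a subunit of mitochondrial RNase P, fell by 0.65 (SE 0.07, adjusted p = 2.37e-05), and POLG2, the accessory subunit of the mitochondrial DNA polymerase, by 0.47 (SE 0.11, adjusted p = 0.00758), a call lost without the 2 controls titled new.

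Of 24 mitoribosome assembly factors and rRNA-modifying enzymes, 8 fell (33.3% against 14.2% of all genes) and 2 rose (8.33% against 12.4%) in FaDU. ERAL1, a chaperone of the small subunit rRNA, fell by 0.75 (SE 0.05, adjusted p = 1.13e-06), and MTERF3, which acts in mitochondrial transcription and large subunit assembly, by 0.73 (SE 0.06, adjusted p = 5.51e-06). YBEY, a predicted RNase that acts in small subunit assembly, rose by 0.32 (adjusted p = 0.00696) and NOA1, a GTPase, by 0.25 (adjusted p = 0.00383), the latter call lost without the 2 controls titled new. ERAL1 was the 1 gene of this list that also fell in JHU-029, by 0.25 (SE 0.05, adjusted p = 0.027), a call lost when any 1 of the 6 JHU-029 arrays was left out (adjusted p of up to 0.13).

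Among 12 translation factors 3 fell in FaDU and 0 rose (limma, 1 higher at an unadjusted p under 0.05). That is 25% lower against 14.2% of all genes, a difference of few genes in so short a list. Among the 3 were the release factor MTRF1 by 0.61 (adjusted p = 0.000551) and the ribosome recycling factor MRRF by 0.44 (adjusted p = 8.3e-05). Of 19 mitochondrial aminoacyl-tRNA synthetase and amidotransferase genes, 4 fell and 0 rose (limma, 1 higher at an unadjusted p under 0.05), a share of 21.1% that is near the 14.2% of all genes. LARS2 fell by 0.47 (adjusted p = 0.00147) and EARS2 by 0.42 (adjusted p = 0.000127). Of 4 mitoribosomal proteins with other symbols, PTCD3 fell by 0.18 (adjusted p = 0.0213), a call lost without FaDU shControl replicate 2 or 3 or FaDU shTP63 replicate 1.

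Of 69 nuclear OXPHOS genes, most of whose products join those made by the mitoribosome, 6 fell and 5 rose in FaDU, and 58 did not pass. The shares of 8.7% lower and 7.25% higher are below the 14.2% and 12.4% of all genes, and the median was 0.00. ATP5MC1, of the ATP synthase ring, fell by 0.61 (SE 0.06, adjusted p = 1.74e-05) and UQCR10, of complex III, by 0.46 (SE 0.06, adjusted p = 7.25e-05). NDUFS7, of complex I, rose by 0.24 (adjusted p = 0.00999), a call lost without the 2 controls titled new. In JHU-029, 1 of them rose, NDUFB1 by 0.60 (adjusted p = 0.00847), a call lost without JHU-029 shControl replicate 3 (adjusted p = 0.0506).

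Of 61 cytosolic ribosomal protein genes, which serve the ribosome outside mitochondria, 7 fell and 1 rose in FaDU (median 0.00), shares of 11.5% and 1.64% that are not above the 14.2% and 12.4% of all genes. RPL32 fell by 0.50 (SE 0.12, adjusted p = 0.00931) and RPL17 by 0.39 (SE 0.11, adjusted p = 0.0194), the second call lost without FaDU shControl replicate 3 and its fall 0.24 without FaDU shTP63 replicate 2. RPLP2 was the 1 that rose, by 0.16 (adjusted p = 0.0444), and it passed in only 1 of the fits with 1 array left out, that without FaDU shControl replicate 3. RPS27 rose by 0.61 in JHU-029 (SE 0.06, adjusted p = 0.000168), the 1 gene of this list past the threshold there. Whether the lists differ from the 74 genes was not tested.

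**Figure D3:**
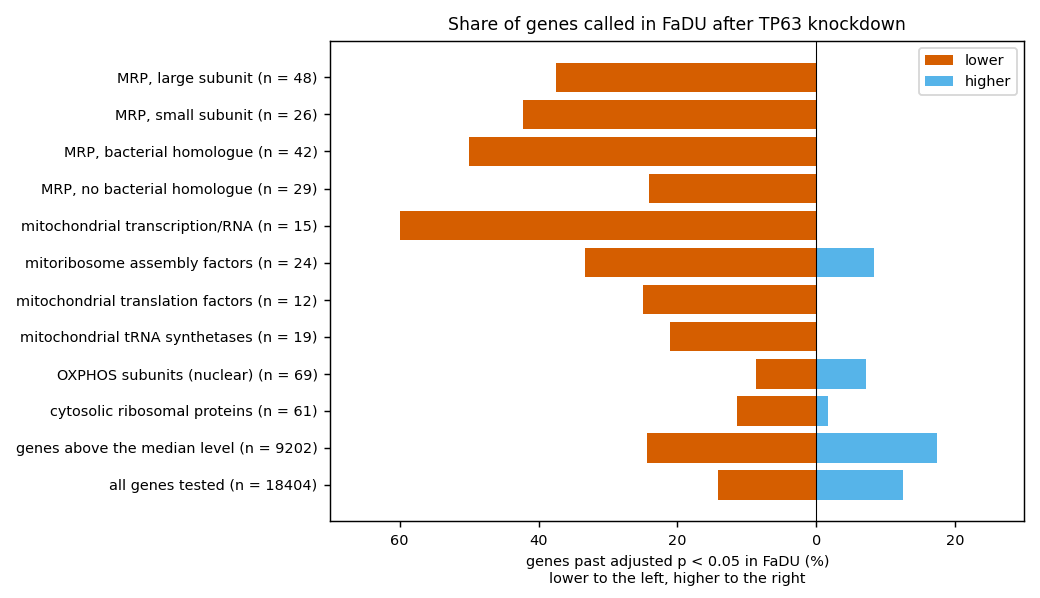
Share of genes (%, horizontal axis) that passed limma's adjusted p of 0.05 after TP63 knockdown in FaDU, lower to the left and higher to the right, for mitochondrial ribosomal protein (MRP) genes, other lists and all genes. The bars reach 37.5% and 42.3% lower for the large and small subunit, 8.7% for OXPHOS genes and 14.2% for all genes. The bar labelled mitochondrial transcription/RNA, whose list also holds DNA replication genes, reaches 60%.

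Without knockdown the 2 lines differed in most of these genes, as in most genes on the array. In shControl cells, 35 members were higher and 22 lower in FaDU than in JHU-029. Of all genes 33.4% were higher and 30.4% lower, 63.8% in all, and 57 of 74 members is read against that. Among genes above the median level 7476 of 9202 passed, against 55 of the 71 members there, so the members' share was not above this background. By direction, 35.5% of these genes were higher and 45.7% lower, against 47.9% and 29.6% of the 71 members. In the large subunit 22 were higher and 15 lower, and in the small subunit 13 and 7. With arrays centred on the median the large subunit split was 18 higher and 16 lower and the small subunit split 12 and 7.

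MRPS27 (8112570), a small subunit protein of the PPR family, had the largest excess in FaDU, with 10.78, 10.79 and 10.96 against 8.74, 8.77 and 8.76 in JHU-029 (2.08, SE 0.08, 4.24-fold, adjusted p = 1.36e-10). MRPL57 was higher by 1.65 (SE 0.07, 3.14-fold), MRPS35 by 1.52, MRPS33 by 1.45, MRPL12 by 1.04, MRPL24 by 1.02, MRPL54 by 0.99 and MRPS9 by 0.86. For each of these 8 genes all 3 FaDU arrays lay above all 3 JHU-029 arrays, which the rule for naming them required. Of all 18404 genes, 12702 had no overlap between the shControl lines in either direction.

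In the other direction, MRPL50 (8162880) read 8.95, 8.85 and 9.05 in FaDU and 10.81, 10.75 and 10.74 in JHU-029, a difference of -1.82 (SE 0.08, 3.53-fold, adjusted p = 3.72e-10). MRPS21 differed by -1.52 (2.87-fold), MRPS18A by -1.44, MRPL17 by -0.86, MRPL40 by -0.82, MRPS14 by -0.76 and the pseudogene MRPS31P5 by -0.51. The parent gene of that pseudogene, MRPS31, was higher by 0.43, though probe sets for such similar copies may share signal. MRPL36 differed by -1.68 by the brighter and 0.54 by the dimmer probe set, so its direction is uncertain. MRPL1, MRPL4 and MRPS17, which fell in FaDU, did not pass between the shControl groups (0.00, -0.03 and -0.04).

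Genes next to a member on the chromosome give a view of whether a line difference runs along a region. For each member the 10 genes tested on each side were read, and the sign of their median matched the member's in 39 of 74 cases. Around MRPL21, on chromosome 11 and 0.59 higher in FaDU, all 20 neighbours were higher, with a median of 0.76, 17 of them past the threshold. Around MRPL13, on chromosome 8 and 0.79 higher, 17 of 20 were higher (median 0.53). Around MRPS27 the median was 0.11, around MRPL57 0.08 and around MRPS21 -0.06. Around MRPS30 the median was -0.71 while MRPS30 itself differed by -0.02, and around MRPL47 it was 0.36 against -0.03.

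**Figure D4:**
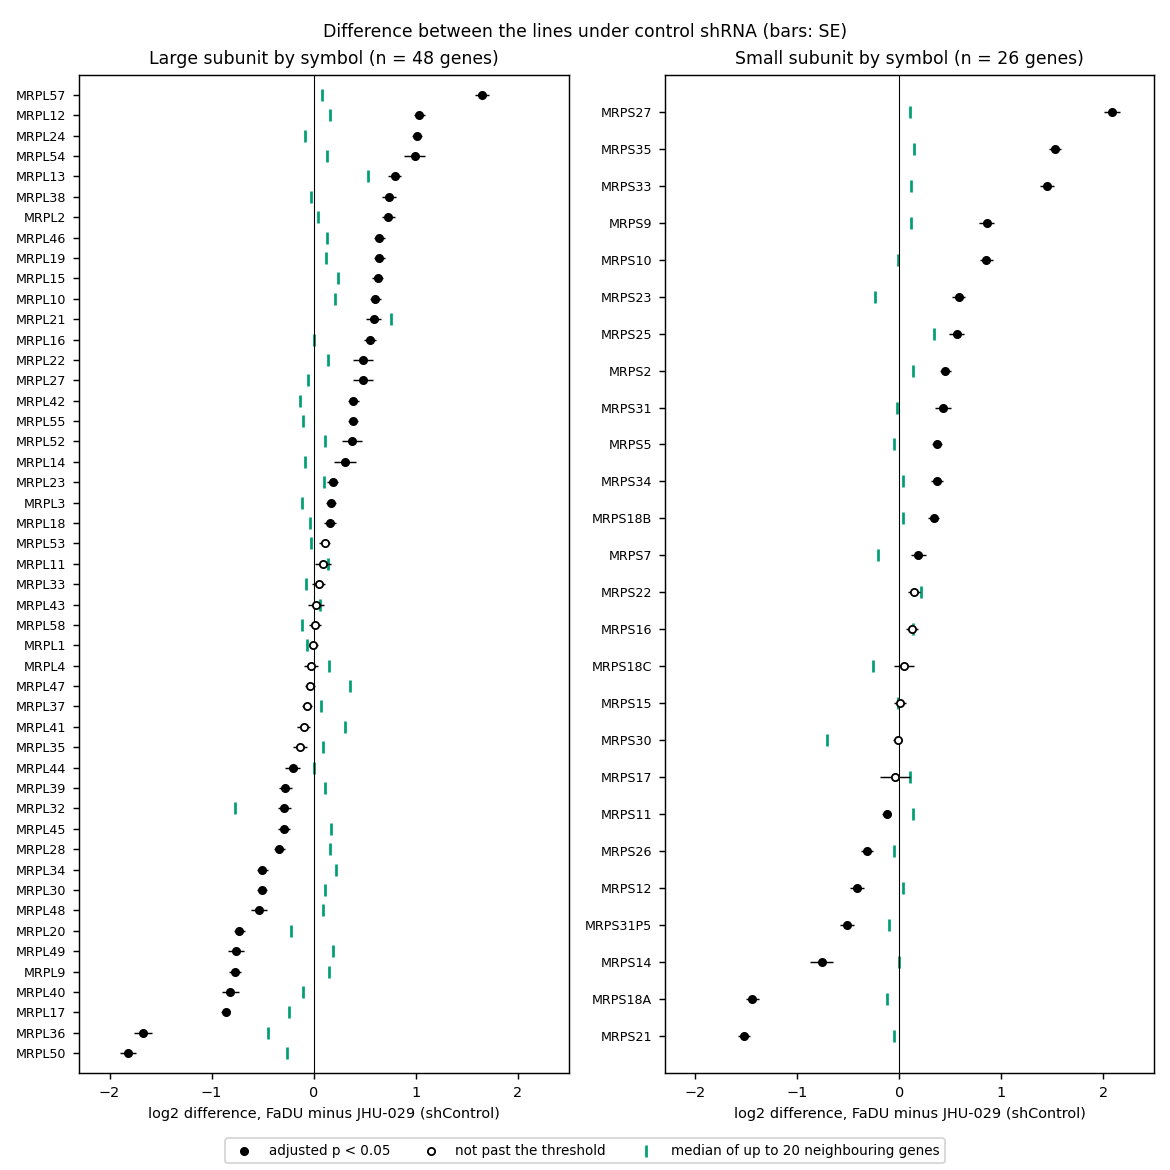
Log2 difference between FaDU and JHU-029 shControl arrays (horizontal axis) with its standard error for each large (left) and small (right) subunit gene, filled where limma's adjusted p was under 0.05, and the median of up to 20 neighbouring genes (green tick). Members range from -1.82 (MRPL50) to 2.08 (MRPS27), while the neighbour medians lie between -0.77 (MRPL32) and 0.76 (MRPL21). MRPL36 is drawn from 1 of its 2 probe sets, which disagree.

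Start regions shared with a gene on the opposite strand, within 1000 bases, gave 18 pairs. In FaDU a member of 6 pairs fell after knockdown, where 14.2% of all genes fell, and in 1 pair the partner passed as well. In other pairs only the partner fell. These partners were EME1 (-0.36, beside MRPL27), MITD1 (-0.32, MRPL30), HELQ (-0.38, MRPS18C) and GGA3 (-0.16, MRPS7), the last only just past the threshold. MRPL57 and SKA3, a kinetochore gene whose start lies 106 bases away, both fell in FaDU, by 0.42 and 0.60 (SE 0.05, adjusted p = 4.47e-06 for SKA3). MRPL32 fell by 0.44 while PSMA2, a proteasome subunit 202 bases away, changed by 0.07 (adjusted p = 0.479). MRPS12 fell by 0.59 while SARS2, a mitochondrial tRNA synthetase gene 181 bases away, changed by -0.15 (adjusted p = 0.124). Between the shControl lines, where 63.8% of all genes passed, both genes passed in 10 of the 18 pairs. They did so in the same direction in 4 and in opposite directions in 6. MRPL50 and ZNF189, 233 bases apart, were both lower in FaDU, by 1.82 and 1.57 on the log2 scale. MRPL49 differed by -0.76 and its partner FAU by 0.47, MRPS12 by -0.41 and SARS2 by 0.84, and MRPL14 by 0.31 and TMEM63B by -0.69. MRPL46 and MRPS11 are such a pair within the family, 320 bases apart, and changed by -0.08 each in FaDU, neither past the threshold (adjusted p = 0.328 and 0.228).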

How the data were processed

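RNA of 12 samples was measured on Affymetrix Human Gene ST arrays. The deposited values are linear intensity, made with RMA in R 2.15.1 per the submitters' processing notes. Its probe set definitions are not given in the sources used here. Because the analysis plan had assumed log2 values, the linear values were put on a log2 scale first. Of 32321 probe sets, 19158 carried 1 gene symbol, and the brightest stood for each of 18404 genes. Probe sets with several symbols (which left MRPL51, MRPS6, MRPS24 and MRPS28 out) were not used, and MRPS36 was not analysed here.

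A model of the 4 groups was fitted with limma 3.58.1 under R 4.3.3. It left 8 residual degrees of freedom, and p-values were adjusted over the 18404 genes (Benjamini-Hochberg). It was tested on simulated data. Members, lists and tests were chosen with earlier results of these data known. Genes were named by rule: up to 4 per subunit, direction and contrast with the largest change and no overlap between groups (for the difference of effects, no overlap rule), MRPL12, MRPL47, MRPS30 and the MRPS18 paralogues in all cases, and up to 2 per list, direction and line. Others (among them MRPL24, MRPL52, MRPL58, MRPL44, MRPS31, MRPL21, MRPL13, gene pairs) were named after their values were seen. Array number limits the precision. Alternatives were other scalings, an offset of 16, a level filter, every probe set, a variance trend, each line alone, a replicate block and left-out arrays.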

Additional observations from a re-analysis of the deposited data

Results flagged for a closer look

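For 18 genes the effect of the knockdown differed between FaDU and JHU-029 by limma's test of that difference, which is what brought them here. On the log2 scale the FaDU effect minus the JHU-029 effect was -0.76 for MRPS14, -0.68 for MRPL1, -0.60 for MRPS12, -0.59 for MRPS25 and -0.54 for MRPL57. It was -0.47 for MRPL32, -0.46 for MRPL11, -0.46 for MRPL36 (probe sets disagree), -0.39 for MRPL4, -0.37 for MRPL24 and -0.37 for MRPL34. It was -0.33 for MRPS23, -0.31 for MRPL16, -0.29 for MRPL3, -0.28 for MRPL12, -0.27 for MRPL47, -0.27 for MRPL42 and -0.25 for MRPL19. The 9 that passed in all 12 fits with 1 array left out were MRPS14, MRPL1, MRPS12, MRPS25, MRPL57, MRPL32, MRPL11, MRPL24 and MRPL34. Of these, MRPS14 (adjusted p = 0.0538) and MRPL11 (0.0678) lost the call under the replicate block. The call for 11 of the 18 was lost under at least 1 of the other settings, the replicate block in each case.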

How the results depend on the processing

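No subunit median changed sign under the alternatives run, and no named gene that passed in the main fit reversed its direction. Changes of sign in named genes that did not pass were not recorded. The count of FaDU calls ran from 15 to 18 (large) and 9 to 12 (small) with 1 array left out, and from 12 to 21 and 8 to 14 under the other settings. The share of all genes tested that fell ran from 12.4% to 14.2% with 1 array left out. Under the other settings it ran from 10.7% (each line alone) to 29% (genes above the median level). A member passed as higher in 2 of the fits with 1 array left out, MRPL53 without FaDU shControl replicate 3 and MRPL54 without FaDU shTP63 replicate 3, and in no other setting. Without the 2 FaDU controls titled new the FaDU medians moved to -0.16 (large) and -0.23 (small), the difference of effects in the small subunit to -0.25, and the shControl line difference to 0.17 and 0.23. With 1 array left out the small subunit FaDU median ran from -0.18 to -0.12. In JHU-029, 2 large and 1 small subunit genes passed among genes above the median level and 1 large with a variance trend, all as higher. Of all genes in those fits, 6.28% and 3.17% passed as higher. For the difference of effects, counts ran from 7 to 14 (large) and 3 to 7 (small) with 1 array left out. Of all genes, 5.86% to 8.88% passed below 0 in those fits. The small subunit count was 9 with an offset of 16, 10 above the median level and 11 with a variance trend. There 9.36%, 20.9% and 10.4% of all genes in the fit passed below 0. The shControl medians became 0.14 (large) and 0.26 (small) by quantile normalisation, 0.017 and 0.11 by centring arrays on the median, and 0.26 for the small subunit above the median level or sorted by structure. The cause of these moves was not tested.

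Same-numbered arrays of a line correlated in their deviations from the group mean at -0.34 to 0.01. With so few arrays per group, this cannot show whether arrays of the same number were handled together. With the replicate number as a block, the difference of effects passed for 5 large and 2 small subunit genes, all below 0. Of all genes, 4.89% passed below 0 in that fit. The FaDU falls were 15 and 10, where 12.1% of all genes fell. By mean intensity 71 of 74 members lay above the median level, which does not show that they are clear of background. MRPL1 lay below the median of all genes (7.21 to 7.23) on the FaDU shTP63 arrays. Whether low intensity limits the size of any fall was not tested.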
